A study of Mus musculus with 4 samples.

Results

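The regions described here are the narrowest initiation zones of mouse embryonic stem cells, those listed with the same first and last position, so that each is a single bin of 1 kb. There were 5673 of them on chromosomes 1 to 19, out of 52116 zones in 2 lists. Set 1 held 3191 among 27871 zones and set 2 held 2482 among 24245. They were chosen by their measured width alone, so widths, and scores and positions that come from the same zone call, are given as descriptions without a test.

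The cells were E14tg2a mouse embryonic stem cells in which genomic ribonucleotides were mapped after alkaline cleavage. The parent line carries Tet-OsTIR1::Rosa26(bi) and mAID-RNaseh2a::puroR(bi), and the derived line carries these alleles with Pole1-M630F(bi). Each line gave 2 libraries, and both lines received doxycycline with auxinole for 24 h and then doxycycline with IAA for 12 h. The labels do not say whether each line is 1 clone, whether replicates came from separate cultures or whether parent libraries entered the zone calls, so spread between sets may be technical. The lists hold no values for single libraries, so read depth is unknown, parent and mutant were not compared, and set 1 and set 2 serve as the only replicates.

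In mammalian cells DNA replication starts at many places that differ from cell to cell, and an initiation zone is a stretch in which starts are frequent. DNA polymerase ε, whose catalytic subunit is encoded by Pole1, copies the leading strand, and the M630F form leaves more ribonucleotides in the strand it makes. RNase H2, of which RNaseh2a encodes the catalytic subunit, normally removes them, and its depletion keeps the marks in place. Since the strand that ε copies switches where forks part, the density of ribonucleotides on either strand can be read for initiation.

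Zones of a single bin were more frequent than zones of any other width in both sets. They made up 11.4% of the zones of set 1 and 10.2% of those of set 2, a mean of 10.8% ± 0.857 (SD over 2 sets). From 1 bin to 2 bins the number dropped from 3191 to 1383 in set 1 and from 2482 to 1127 in set 2, ratios of 2.31 and 2.20. No later step up to 10 bins was as steep, with 1.31 and 1.32 between 2 and 3 bins and between 0.974 and 1.29 beyond. The comparison class of 2 to 10 bins held 7105 zones in set 1 and 5647 in set 2. Single-bin zones added little to the territory called, with 0.416% of the zone-covered bins and 0.213% of the summed score in set 1, and 0.315% and 0.147% in set 2.

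**Figure D1:**
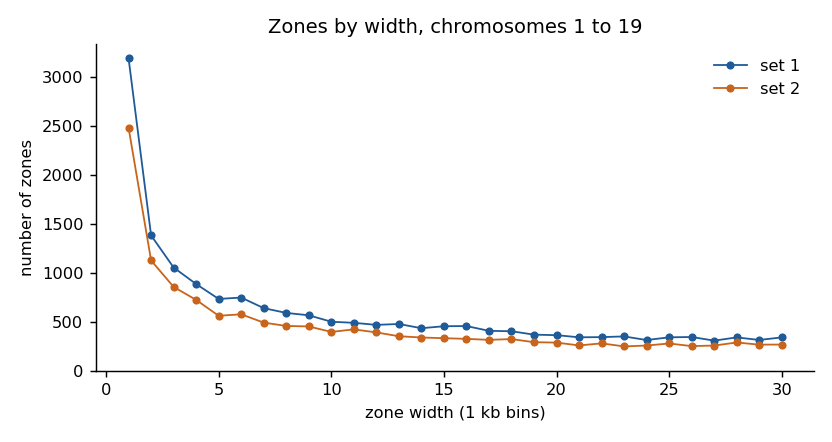
Number of zones (vertical axis) at each width from 1 to 30 bins of 1 kb (horizontal axis) in set 1 and set 2. Both lines start at their highest point, 3191 and 2482 zones of a single bin, and drop to 1383 and 1127 at 2 bins.

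The scores of single-bin zones were low and took few values. The score is the authors' own number per zone, its unit is not stated, and scores are compared only within each list. In set 1 the scores of single-bin zones had a lower quartile of 0.105, a median of 0.2095 and an upper quartile of 0.419, against a median of 1.28 for zones of 2 to 10 bins. In set 2 the quartiles were 0.0877, 0.175 and 0.351, against 1.01. The ratio of the medians was 0.163 in set 1 and 0.174 in set 2, and within chromosomes it ran from 0.140 to 0.227 in set 1 and from 0.140 to 0.222 in set 2. On all 19 chromosomes of both sets the single-bin median was thus the lower one. Zones just above the width limit, those of 2 bins, had median scores of 0.524 and 0.416. Per bin, the medians lay closer, at 0.2095 for 1 bin, 0.262 for 2 bins and 0.282 for 2 to 10 bins in set 1, and 0.175, 0.208 and 0.230 in set 2.

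Expressed as whole steps, the scores of the single-bin zones had the same quartiles in both sets. All scores lay within 0.0001 of a whole multiple of the fitted step, which rounds to 0.0261911 in set 1 and 0.0219163 in set 2. Counted in such steps, the quartiles of single-bin zones were 4, 8 and 16 in set 1 and 4, 8 and 16 in set 2. Zones of 2 to 10 bins had quartiles of 25, 49 and 92 steps in set 1 and 23, 46 and 90 in set 2. The most frequent score was 3 steps in both sets, found in 244 and 200 single-bin zones, and 143 and 120 had the smallest score possible, 1 step. Scores of up to 10 steps belonged to 59.0% of single-bin zones in set 1 and 59.3% in set 2, against 5.69% and 6.78% of zones of 2 to 10 bins. What a step stands for is not stated, so this likeness is one of list structure and not of measured levels.

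**Figure D2:**
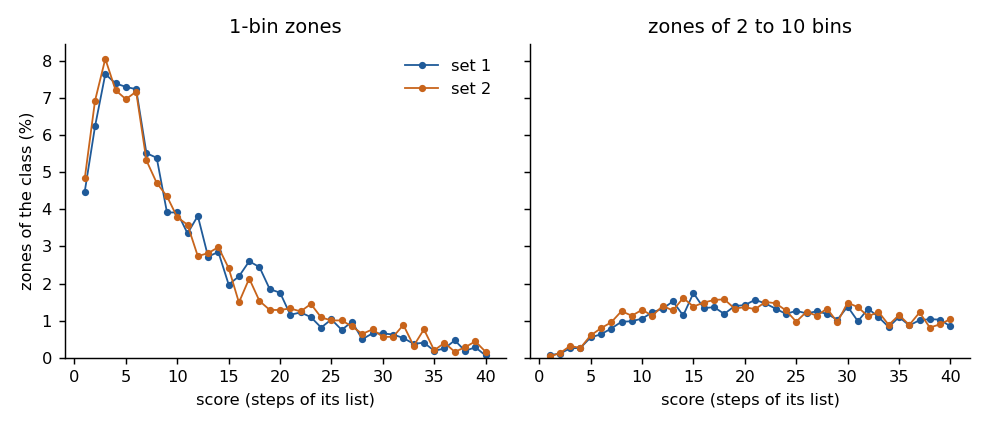
Share of zones (vertical axis, percent of the class) at each score from 1 to 40 steps (horizontal axis), for single-bin zones and for zones of 2 to 10 bins in both sets. The lines of the sets nearly coincide, with the single-bin peak at 3 steps and a median of 8 steps, while zones of 2 to 10 bins spread over higher scores.

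A few single-bin zones scored far above the median of their class. In set 1, 17 exceeded a score of 5, and in set 2, 14 did, or 0.533% and 0.564% of the class. The share among zones of 2 to 10 bins was 5.69% and 3.58%. Among zones of over 10 bins it was 86.4% and 84.8%, with lower quartiles of the score at 8.28 and 8.48. Those of set 1 lay on 10 chromosomes, with 4 on chromosome 12 and 3 on chromosome 13. Those of set 2 lay on 5 chromosomes, with 5 on chromosome 7 and 4 on chromosome 12. The limit of 5 was chosen after the scores were seen. It may not mean the same in both sets, so shares above it are compared between classes of a set and not between sets.

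The highest-scoring single-bin zone of set 1 lay on chromosome 4 at 60589000 (GRCm39, as the lists give positions), with a score of 24.3, above that of 72.4% of all zones of the set. Its neighbours lay 160 kb and 201 kb away, and the nearest zone of set 2 lay 100 kb off. In set 2 the highest was on chromosome 7 at 60250000, with a score of 29.6. It stood between single-bin zones at 60220000 (score 14.9) and 60280000 (score 8.42), at 30 kb on either side, and the nearest zone of set 1 lay 150 kb off. The next in each set was the same bin, chromosome 12 at 22436000, with scores of 23.2 in set 1 and 24.8 in set 2. The other 3 of the 5 highest in set 1 lay at 7715000 on chromosome 7 (17.3), 66497000 on chromosome 13 (15.9) and 14843000 on chromosome 14 (15.2). Those of set 2 lay at 59536000 and 8071000 on chromosome 7 (20.5 and 19.4) and at 15866000 on chromosome 14 (17.9). Apart from the bin on chromosome 12, none of these lay in a zone of the other set.

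Single-bin zones lay about as close to other zones of their own set as zones of 2 to 10 bins did. Distances are counted from the edge bin of one zone to the edge bin of the next, and the smallest in either set is 11 kb. The nearest zone of 2 or more bins lay a median of 23 kb away in set 1 (quartiles 14 and 39 kb, at most 312 kb) and 22 kb in set 2 (14 and 42 kb, at most 357 kb). For zones of 2 to 10 bins, the medians to the nearest zone wider than themselves were 29 kb and 31 kb. A common target makes the classes comparable: the nearest zone of over 10 bins lay a median of 33 kb and 34 kb from single-bin zones, against 35 kb and 36 kb. On chromosomes, this median was shorter for single-bin zones on 13 of 19 in set 1 and 14 of 19 in set 2. The difference per chromosome averaged -1.50 kb ± 2.65 (SD, n = 19 chromosomes) in set 1 and -2.53 kb ± 6.02 in set 2, so it was smaller than the spread between chromosomes.

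The zones beside single-bin zones were about as wide as those beside zones of 2 to 10 bins and lay evenly to either side. The nearest zone of 2 or more bins was typically 22 kb wide in set 1 and 24 kb wide in set 2 (medians), against 21 kb and 24 kb beside zones of 2 to 10 bins. The nearer neighbour was on the side of lower positions for 1570 single-bin zones of set 1 and of higher positions for 1587, with 1225 and 1224 in set 2. Of all neighbours, 11.1% were single-bin zones themselves in set 1 and 11.3% in set 2, close to their share of all zones (11.4% and 10.2%). Both neighbours had over 10 bins for 42.0% of single-bin zones in each set, against 40.04% and 43.95% of zones of 2 to 10 bins. Runs of 2 or more single-bin zones in a row held 670 and 532 zones of the class.

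The distances to neighbours fell steeply from 11 kb and had a local low at 31 kb. From single-bin zones, 300 distances of set 1 were exactly 11 kb and 59 were 30 kb, and in set 2 the numbers were 215 and 57. At 31 kb there were 31 in set 1 and 17 in set 2, against means of 65 and 51 at 28, 29, 30, 32, 33 and 34 kb. The lowest of those 6 values was 52 in set 1 and 36 in set 2, so 31 kb lay below all of them in both sets. The low value was not particular to single-bin zones. Zones of 2 to 10 bins had 77 and 55 distances of 31 kb against 156.5 and 107.2 beside it, and zones of over 10 bins 206 and 122 against 346.2 and 267.5. A distance between neighbours is counted once from each of them. What sets the low at 31 kb was not tested.

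**Figure D3:**
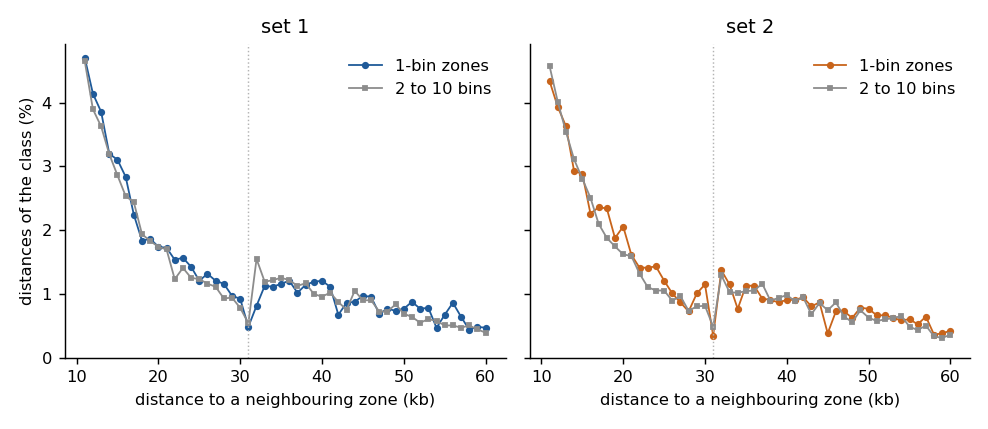
Share of distances (vertical axis, percent of the class) by distance to either neighbouring zone of the same set (horizontal axis, 11 to 60 kb), for single-bin zones and zones of 2 to 10 bins. Both classes drop from 11 kb to a local low at 31 kb, marked by the dotted line, where single-bin zones have 31 distances in set 1 and 17 in set 2.

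Counted per length of sequence away from broad zones, single-bin zones were densest right beside those zones. Bins were called free where they lay at least 11 kb from every zone of over 10 bins of the same set. This left 1335 Mb in set 1 and 1332 Mb in set 2. Bins near zones of 2 to 10 bins were kept, although they cannot hold a single-bin zone. Without those, 1175 Mb and 1205 Mb remained. At 11 to 15 kb from a broad zone there were 4.79 single-bin zones per Mb of free bins in set 1 and 3.76 in set 2. At 21 to 30 kb there were 1.78 and 1.36, and at 41 to 60 kb there were 1.72 and 1.23. At 81 to 100 kb the density was higher again, with 2.96 and 2.22, and set 2 had 2.41 in the next class, up to 150 kb, where set 1 had 2.22. Beyond 150 kb it was lower, at 1.65 and 1.62. Over all free bins it was 2.39 and 1.86 per Mb. The rise farther out was not particular to single-bin zones. Zones of 2 to 10 bins, placed by their middle bin, had 6.17 and 5.16 per Mb at 11 to 15 kb and 6.76 and 5.77 at 16 to 20 kb. The middle bin can lie farther out than the edge. By edge, 9.12% of them in set 1 and 9.07% in set 2 had their nearest zone of any width at 11 kb. For single-bin zones this was 9.12% and 8.58%, so closeness to a neighbour was not particular to them. By middle bin again, zones of 2 to 10 bins fell farther out and then rose. They had 3.85 and 2.85 at 41 to 60 kb, and 7.33 and 6.34 at 81 to 100 kb.

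Within the class, the highest of 5 equal score classes most often had another zone close by. The median distance to any zone of the set went from 21 kb in the lowest to 16 kb in the highest score class of set 1, and from 23 kb to 17 kb in set 2. In the lowest score class of set 1, 30.5% had another zone within 15 kb, and in the highest 44.8% had one. In set 2 the shares were 25.8% and 42.9%. The median distance to a broad zone was 35 kb in the lowest and 26.5 kb in the highest class of set 1, and 36 kb and 28 kb in set 2. Of the 32 zones that make up the highest 1% in set 1, 3 lay over 100 kb from any other zone, and of the 25 in set 2, 4 did. In set 2 the share that lay over 100 kb from any zone was also largest in the highest of the 5 score classes, at 2.62% against 0.604% in the lowest, while in set 1 these shares were 0.784% and 0.939%. In the whole class this was seen for 28 zones in set 1 and 39 in set 2, or 0.877% and 1.57%.

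The farthest from any zone of its own set was, in set 1, the bin on chromosome 12 at 22436000, with neighbours 203 and 368 kb away. It was followed by the zone on chromosome 4 at 60589000 and by one on chromosome 12 at 58761000, which had a score of only 0.0524 and neighbours at 237 and 154 kb. In set 2 the farthest was chromosome 7 at 8071000, with neighbours at 331 and 357 kb. Next came chromosome 4 at 122168000, with a score of 17.4 and neighbours at 615 and 285 kb, and chromosome 12 at 22876000, with a score of 2.26 and neighbours at 440 and 270 kb. Of these 6, 4 had scores above 17, while the median of the class was near 0.2.

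The next comparison asked whether the other set also called a zone where one set listed a single bin. Most single-bin zones lay outside the zones of the other set. In set 1, 859 of 3191 lay in a zone of set 2, or 26.9%, where the background over all 27871 zones of set 1, taken at the middle bin, was 40.1%. In set 2, 651 of 2482 lay in a zone of set 1, or 26.2%, against a background of 40.1%. Zones of 2 to 10 bins, also taken at the middle bin, had 28.8% and 27.6%, and zones of over 20 bins had 52.5% and 51.8%. These shares come from 1 comparison of the lists, read from either side, so their SD is not a spread of replicates. The mean over sets was 26.6% ± 0.488 (SD over 2 sets) for single-bin zones. For the difference from zones of 2 to 10 bins it was -1.63 percentage points ± 0.307.

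That difference was within the spread between chromosomes. Per chromosome it averaged -2.0 points ± 3.88 (SD, n = 19) in set 1 and -1.24 ± 4.74 in set 2, and it was below 0 on 12 of 19 chromosomes in set 1 and 11 of 19 in set 2. Against zones of 2 to 10 bins with scores no higher than the 90th percentile of single-bin zones (0.681 in set 1 and 0.614 in set 2), its sign turned. Those 1942 and 1758 zones lay inside the other set in 26.4% and 25.0% of cases. With any overlap of at least 1 bin in place of the middle bin, which favours wider zones, zones of 2 to 10 bins met the other set in 33.3% and 32.97% of cases, with a background over all zones of 56.3% in set 1 and 60.2% in set 2. For a single bin this measure is the same as lying inside.

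Single-bin zones lay in zones of the other set more often than the free bins of their own set did. Of the free bins, 21.4% lay in zones of set 2 for set 1, and 20.99% in zones of set 1 for set 2. The single-bin zones exceeded this by 5.53 points in set 1 and 5.24 in set 2. Zones of the comparison class, taken at the middle bin, exceeded it by more, 7.38 points in set 1 and 6.66 in set 2. An excess over free bins was thus not particular to single-bin zones. Per chromosome the excess of single-bin zones averaged 5.63 points ± 3.66 (SD, n = 19) and 5.29 ± 4.38. It was above 0 on 18 of 19 chromosomes in set 1 and 16 of 19 in set 2. Chromosome 5 had the highest excess in both sets, at 13.5 and 13.3 points, and the lowest were chromosome 4 in set 1 (-0.205) and chromosome 18 in set 2 (-2.06). Against all bins of the span, own broad zones included, the sign turned, since 32.8% and 31.95% of the span lay in zones of the other set. Assembly gaps were not removed from the free bins, and without bins over 100 kb from every zone of both sets the excess was 5.30 and 5.02 points.

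The density of single-bin zones was highest deep inside the other set's zones and lowest far outside, though not every step between went down. At 20 kb or more inside a zone of the other set there were 3.47 per Mb of free bins in set 1 and 2.61 in set 2. At the rim, within 4 kb inside, there were 2.84 and 2.19, and at 1 to 5 kb outside 2.70 and 2.07. At 31 to 50 kb outside the values were 1.998 and 1.39, and beyond 100 kb 0.995 and 1.09, from 32 and 27 zones. Zones of 2 to 10 bins went over the same classes from 9.16 to 2.18 per Mb in set 1 and from 6.98 to 1.22 in set 2. In set 1 the density at 11 to 15 kb outside (2.77) was above that at 6 to 10 kb (2.44), and in set 2 it was 2.09 against 1.87.

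**Figure D4:**
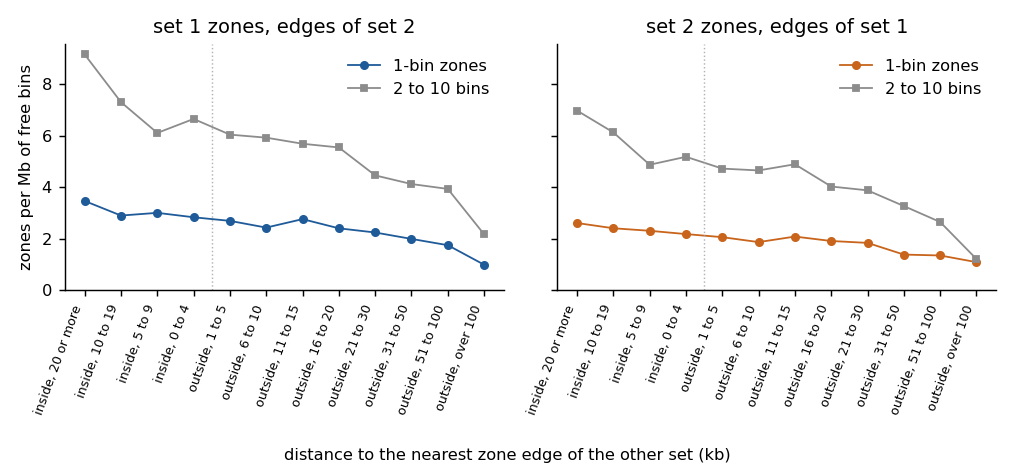
Zones per Mb of free bins (vertical axis) by distance to the nearest zone edge of the other set in kb (horizontal axis, from deep inside to far outside, the dotted line marking the edge), for single-bin zones and zones of 2 to 10 bins. Single-bin zones go from 3.47 to 0.995 per Mb in set 1 and from 2.61 to 1.09 in set 2.

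The hosts in which single-bin zones fell were broad about as often as those of free bins. Of the 859 in set 1, 807 lay in a zone of over 10 bins, 40 in one of 2 to 10 bins and 12 at a single-bin zone. Of the 651 in set 2 the numbers were 598, 41 and 12. Of the free bins, 19.98% lay in zones of over 10 bins out of 21.4% in zones of any width for set 1, and 19.2% out of 20.99% for set 2. For zones of 2 to 10 bins the host was of over 10 bins in 1945 of 2044 cases in set 1 and 1452 of 1561 in set 2. The host had a median width of 49 kb and a median score of 28.2 for single-bin zones of set 1, and 43 kb and 25.6 for those of set 2. Only 4.84% of the broad zones of set 2 (780 of 16116) held a single-bin zone of set 1, and 3.29% of those of set 1 (579 of 17575) held one of set 2. Within the host, 55.6% and 56.4% lay nearer the edge than the centre, and free bins in such zones had 56.8% and 55.8%.

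Broad hosts were sorted by the other zones of the single-bin zone's own set that overlapped them. In 298 of the 780 hosts of set 1 zones, single-bin zones were the only call of set 1, and in 396 set 1 also had a broad zone that overlapped the host. For set 2 the numbers were 267 and 258 of 579. Hosts with no other call had a median width of 29 kb and 31 kb, and hosts shared with a broad zone 67 kb and 63 kb. Nearly all hosts held 1 single-bin zone (754 and 560), and 25 and 19 held 2.

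Outside the zones of the other set, 632 single-bin zones of set 1 lay within 1 to 10 kb of one, 924 at 11 to 30 kb, 744 at 31 to 100 kb and 32 farther away. For set 2 the numbers were 544, 779, 481 and 27. Counting zones inside or within 10 kb gave 46.7% in set 1, against a background of 58.9% over all zones, and 48.1% in set 2, against 61.7%. Those outside lay a median of 21 kb and 18 kb from the other set, against 20 kb and 17 kb for zones of 2 to 10 bins. The share inside the other set was 24.4% in the lowest and 30.7% in the highest of 5 score classes in set 1, and 24.3% and 33.4% in set 2, with the middle class of set 2 lowest at 20.4%. Among the highest 1% of scores it was 18.8% and 16%, from 32 and 25 zones.

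Single-bin zones of one set rarely met single-bin zones of the other. A single-bin zone of the other set lay within 10 kb of 78 zones of set 1 (2.44%, where the background over all zones was 2.03%) and of 79 zones of set 2 (3.18%, background 2.77%). Zones of 2 to 10 bins had 2.22% and 3.17%. Exactly the same bin was listed 12 times, or for 0.376% of single-bin zones of set 1 and 0.483% of those of set 2. Among zones of 2 to 10 bins, 7 of set 1 and 9 of set 2 had such a zone at their middle bin (0.0985% and 0.159%). Averaged over both directions, offsets of 1, 2 and 3 kb had 4, 3.5 and 3 pairs each, and offsets beyond 100 kb and up to 500 kb had 3.31.

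The 12 bins common to both sets lay on 9 chromosomes and had a wide range of scores. In set 1 they ran from 0.0262 to 23.2 with a median of 0.367, and in set 2 from 0.0438 to 24.8 with a median of 0.449. The medians of the whole class were 0.2095 and 0.175. In both sets, 3 of the 12 were above the 90th percentile of their class. These were chromosome 12 at 22436000 (23.2 and 24.8), chromosome 4 at 88699000 (3.25 and 8.55) and chromosome 13 at 68388000 (10.03 and 2.39). The next by mean rank were chromosome 3 at 75324000 (0.890 and 0.592) and chromosome 5 at 28701000 (0.367 and 1.12). The other 7 had scores of 0.445 or lower in set 1 and 0.679 or lower in set 2.

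Every chromosome held single-bin zones, from 77 on chromosome 19 to 251 on chromosome 1 in set 1 and from 45 to 214 on the same chromosomes in set 2. Per Mb of the span between the first and last zone there were 1.33 ± 0.113 (SD, n = 19 chromosomes) in set 1 and 1.03 ± 0.142 in set 2. Set 1 was the denser on 18 of 19 chromosomes, the exception being chromosome 14. In set 1 chromosome 3 was densest (1.56 per Mb), followed by chromosome 8 (1.49), and chromosome 11 was sparsest (1.15). In set 2 chromosome 14 was densest (1.48), above the next at 1.14, and chromosome 19 was sparsest (0.773), below the next at 0.912. On chromosome 14, single-bin zones made up 14.1% of the zones of set 2 and 12.2% of those of set 1.

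The densities of the sets showed little relation across chromosomes. Chromosomes 14 and 18, the densest of set 2 (1.48 and 1.14 per Mb), were also among the denser ones of set 1 (1.45 and 1.42). Chromosome 12, the next in set 2 (1.13), was among the sparsest of set 1 (1.15). Chromosome 3, the densest of set 1 (1.56), had 1.015 in set 2, below the mean of that set (1.026). Across 19 chromosomes, the density in set 1 and set 2 had a Pearson correlation of 0.139 and a rank correlation of 0.0193, given as a description. Without chromosome 14 these were -0.106 and -0.123. For zones of 2 to 10 bins the correlations were 0.226 and 0.188, and 0.106 and 0.0857 without chromosome 14. The coefficient of variation over chromosomes was 8.50% in set 1 and 13.8% in set 2, and 8.47% and 9.35% without chromosome 14. For zones of 2 to 10 bins it was 6.28% and 5.66%.

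**Figure D5:**
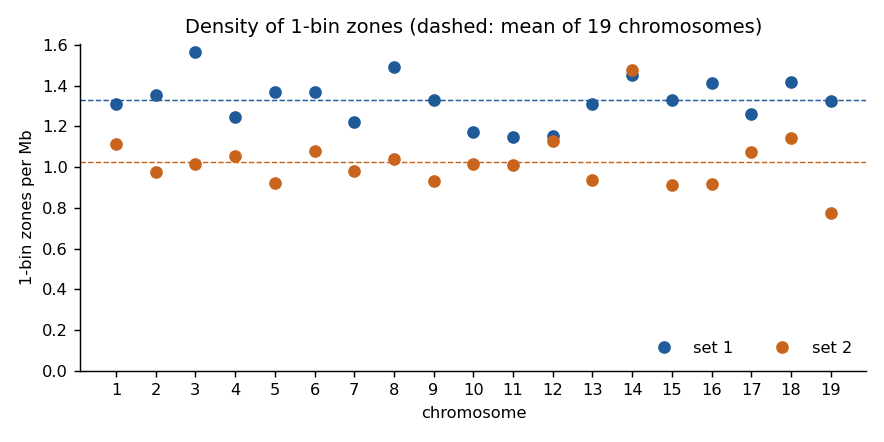
Single-bin zones per Mb (vertical axis) on chromosomes 1 to 19 (horizontal axis) in each set, with the mean over chromosomes as a dashed line (1.33 in set 1 and 1.03 in set 2). Chromosome 14 is the only one where set 2 (1.48) lies above set 1 (1.45), and chromosome 19 of set 2 is lowest at 0.773.

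Along the chromosomes single-bin zones were spread thinly, and their count per window varied slightly more than its mean. Over 2390 windows of 1 Mb, 675 windows of set 1 and 904 of set 2 held none, 801 and 840 held 1, and 122 and 72 held 4 or more. The variance of the count was 1.08 times the mean in set 1 and 1.13 times in set 2, against 1.14 and 1.18 for zones of 2 to 10 bins. The counts of the sets had a rank correlation of 0.0614 across windows, against 0.0830 for zones of 2 to 10 bins and 0.161 for zones of over 10 bins. Windows share chromosomes and any assembly gaps. In 3 windows both sets held 4 or more. In the first 10 Mb of the span, nearest the centromere in mouse, there were 1.22 per Mb in set 1 and 0.921 in set 2, against 1.34 and 1.04 between the ends and 1.33 and 1.03 in the last 10 Mb.

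The fullest window of set 1 lay on chromosome 2 from 156071000 to 157070999, with 8 single-bin zones, none scoring above 0.838. In set 2 it lay on chromosome 5 from 91112000 to 92111999, with 6, none above 0.482. The longest run of set 1 held 4 single-bin zones over 217 kb on chromosome 6 from 68272000 to 68488000, with scores from 0.0262 to 0.864, and 2 other runs were as long. That of set 2 held 6 over 973 kb on chromosome 12 from 23323000 to 24295000. It included zones at 23568000 and 23582000 with the same score of 8.02 and zones at 24247000 and 24295000 with the same score of 1.67.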

How the data were processed

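Genomic ribonucleotides were mapped in 4 libraries, 2 of the parent line and 2 of the Pole1-M630F line, per the labels, from alkali-cleaved fragments of 300 to 2000 nucleotides. The submitters' processing notes name Bowtie2 and GRCm39 without a role or version. The labels and notes do not say how zones were called or what the score means. For each zone, the deposited lists give chromosome, first and last position and a score. Positions are other values than measurements, all multiples of 1000, and the last was read as the last bin. The score step of each set was fitted by least squares. Distances, places and densities were computed from the lists and checked on simulated lists against slow loops (1200 zones, 0 mismatches), with Python 3.11.15, NumPy 2.4.6, SciPy 1.17.1, pandas 2.3.3 and Matplotlib 3.10.9.

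Named regions were the 5 highest scores and the 3 most distant zones of each set, the longest run, the fullest 1 Mb window and the 5 best-ranked bins common to both sets, ties going to the lower chromosome number and position. The members and comparisons were chosen with earlier results of these data known. No test was made, because the width chose the members and each set is 1 list. Spread is given over the 2 sets or over 19 chromosomes, which share libraries. Genes and sequences were not analysed here, since the gene table and the promoters at hand are on another genome build.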

Additional observations from a re-analysis of the deposited data

How the results depend on the processing

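Of 30 alternative settings, 9 moved their result by no more than the SD over the 2 sets. Where a result refers to the other set, that SD only covers the 2 directions of 1 comparison. The share of zones with 1 bin fell from 10.8% to 3.61% without the lowest 10% of scores. The score ratio of 0.169 became 0.214 with means and 0.254 against 2 to 5 bins. The median distance to the nearest broad zone, 33.5 kb, became 22.5 kb to zones of 2 or more bins, 20 kb to zones of any width and 54.1 kb between midpoints. The distance difference of -2 kb became -1 kb for zones of any width, -1 kb against 2 to 5 bins and -5.38 kb between midpoints.

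The share inside the other set, 26.6%, became 47.4% with 10 kb added, 24.7% for zones of over 10 bins, 21.5% for zones at or above the median score and 28.6% for single-bin zones above their own median score. Its difference from 2 to 10 bins, -1.63 points, became -6.56 with any overlap and turned to 0.852 against low scores; the cause was not tested. Its difference from free bins, 5.39 points, became 6.13 for bins free of zones of 2 or more bins, 5.09 for hosts of over 10 bins and 5.16 without bins over 100 kb from every zone, and turned to -5.82 against all bins of the span, which include own broad zones. The share with a single-bin zone of the other set within 10 kb, 2.81%, became 1.75% within 5 kb and 0.430% at the same bin. The settings without chromosome 14, without chromosome 19 and without far bins were chosen after the data were seen.

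With the zones of set 1 left out and with those of set 2 left out, in that order, the share of zones with 1 bin was 10.2% and 11.4%. The score ratio was 0.174 and 0.163, the distance to a broad zone 34 kb and 33 kb, and the distance difference -2 kb in each. Results that refer to the other set still used both sets. For these, the values are the 2 directions of 1 comparison of the lists. The share inside the other set was 26.2% and 26.9%. Its difference was -1.41 and -1.85 points from 2 to 10 bins, and 5.24 and 5.53 points from free bins. The share with a single-bin zone of the other set within 10 kb was 3.18% and 2.44%. The spread over chromosomes was 13.8% and 8.50%. No paired analysis was possible because parent and mutant libraries have no separate values in these lists. Depth is unknown, so counting error could not be given.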

Other observations

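The X chromosome held 260 single-bin zones in set 1 and 212 in set 2, or 1.56 and 1.28 per Mb, above the mean of the 19 autosomes in both sets (1.33 and 1.03). In set 1 only chromosome 3 was as dense among autosomes, and in set 2 only chromosome 14 was denser.

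A stretch of chromosome 12 that holds both the bin at 22436000 and the run ending at 24295000, chosen after its values were seen, was rich in single-bin zones in both sets. They made up 8 of its 19 zones in set 1 (42.1%) and 9 of its 12 zones in set 2 (75%). Their median scores there were 2.17 and 1.75, against 0.2095 and 0.175 in the whole class, and 2 and 3 of them scored above 5.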
